A study of Mus musculus with 2 samples.

Results

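Fast transmission by glutamate and GABA runs through ligand-gated ion channels, each built from several subunits encoded by separate genes. The genes described here are the 31 symbols, of 32285 gene identifiers, whose names mark them as AMPA (Gria), kainate (Grik), delta (Grid) or NMDA (Grin1, Grin2 and Grin3) receptor subunits or as alpha, beta or gamma subunits of the GABA-A receptor (Gabra, Gabrb, Gabrg), with Grina left out. They were chosen by name and not by level. Of the 31, 30 are protein-coding subunit genes: 4 AMPA, 5 kainate, 2 delta, 7 NMDA and 12 GABA-A genes. The remaining symbol, Grin1os, is an antisense RNA that overlaps Grin1 and held 14 UMIs in the mutant library and 9 UMIs in the control library.

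The levels were measured in whole cerebella of mouse embryos at E16.5, a stage at which granule cell precursors proliferate on the surface of the cerebellum. The mutant embryos carried Blbp-cre with 1 Ctnnb1(ex3)fl allele (fl/wt) and Smarca4fl/fl, and their cerebella held lesions. The control embryos were cre-negative, and the labels do not say which floxed alleles they had. Blbp-cre acts in radial glia and other neural progenitors, and not in 1 cell type alone. The exon 3 deletion leaves a beta-catenin that escapes degradation, which turns on Wnt targets, and Smarca4 encodes the ATPase of a chromatin remodelling complex. Material of 3 samples per genotype was pooled, dead cells were sorted out, and 40000 cells went into 1 droplet library that counts transcripts at their 3' ends by unique molecular identifiers (UMIs). There was thus 1 mutant and 1 control library, so no difference between genotypes has a replicate check, and none was tested.

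AMPA and kainate receptors carry fast excitation, NMDA receptors admit calcium after depolarisation, and delta receptors bind secreted cerebellins at synapses. GABA-A receptors are chloride channels assembled mostly from alpha, beta and gamma subunits, and the choice of subunit sets where the receptor sits and how it responds. In immature neurons and progenitors, where the chloride importer Slc12a2 (NKCC1) is high, GABA is known to depolarise. Glutamate and GABA-A receptors are also found on radial glia, Bergmann glia and oligodendrocyte precursors, among them the AMPA subunits Gria1 and Gria4 in Bergmann glia.

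The kept cells numbered 15864 in the mutant library, with a median of 9714 UMIs, and 15969 in the control library, with a median of 10016 UMIs. Cells were placed in classes by fixed markers: 10783 mutant cells (68.0%) and 9508 control cells (59.5%) received a class. Of the barcodes kept in either library, 64 occurred in both. Levels are given as CPM, the UMIs of a gene per 1000000 UMIs of the cells summed. Smarca4 had 49.5 CPM in the mutant library and 68.2 CPM in the control library, and Ctnnb1 had 172 CPM in the mutant library and 118 CPM in the control library. Tags at the 3' end can lie outside the deleted stretch, so these levels check nothing about the deletion. The lesion gate, built on Wif1, Fstl4, Adamts19, Notum, Lgr6, Hpse2 and Rgs6, held 4813 mutant cells (30.3%) and 18 control cells (0.113%). All markers of each of the 6 neural classes compared below were detected in both libraries, while the Purkinje cell gate found 2 mutant and 5 control cells, so that class has no usable level. Of the 6 fixed Purkinje symbols, 1 matched no gene of the tables, and that gate ran on 5.

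Most GABA-A genes lie in clusters. The cluster on chromosome 5 holds Gabrg1 at chr5:70751047-70842617, Gabra2 at chr5:70957597-71095849, Gabra4 at chr5:71569749-71658308 (all on the minus strand) and Gabrb1 at chr5:71658113-72149037 on the plus strand (GRCm38). Gabra4 and Gabrb1 are head to head, and their annotated 5' ends overlap by 196 bases. Gabra6 and Gabrb2 lie in a cluster on chromosome 11, and Gabrg3 and Gabra5 in another on chromosome 7. The promoter windows below, from 250 bases before to 50 bases after the start, come from RefSeq (GRCm38.p6). The first 3 are shown because Gabra2 lies beside the Gabra4 and Gabrb1 pair and differed from control astroglial cells in the opposite direction, and the last because Gabrb2 was higher in the mutant in each of the 6 neural classes compared. They are printed 5' to 3' on the strand of the gene, with capitals for the motif CTTTGAT.
Gabra2 promoter, chr5:71095800-71096099, minus strand: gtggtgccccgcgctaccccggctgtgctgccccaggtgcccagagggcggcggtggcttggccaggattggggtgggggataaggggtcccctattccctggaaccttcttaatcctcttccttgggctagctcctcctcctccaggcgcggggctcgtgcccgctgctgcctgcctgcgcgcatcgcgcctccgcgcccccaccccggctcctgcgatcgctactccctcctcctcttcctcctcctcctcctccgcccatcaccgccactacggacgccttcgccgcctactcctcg
Gabra4 promoter, chr5:71658259-71658558, minus strand: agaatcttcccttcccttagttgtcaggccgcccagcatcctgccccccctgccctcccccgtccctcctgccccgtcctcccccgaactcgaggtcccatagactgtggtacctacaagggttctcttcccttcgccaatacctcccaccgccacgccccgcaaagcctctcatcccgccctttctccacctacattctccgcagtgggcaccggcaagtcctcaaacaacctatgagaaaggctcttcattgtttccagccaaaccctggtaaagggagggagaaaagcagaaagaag
Gabrb1 promoter, chr5:71657671-71657970, plus strand: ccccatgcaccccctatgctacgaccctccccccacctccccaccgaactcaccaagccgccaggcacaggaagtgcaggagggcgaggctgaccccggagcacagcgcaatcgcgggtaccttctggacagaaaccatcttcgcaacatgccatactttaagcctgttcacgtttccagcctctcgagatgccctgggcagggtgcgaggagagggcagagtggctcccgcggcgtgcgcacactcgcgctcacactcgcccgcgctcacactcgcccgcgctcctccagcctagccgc
Gabrb2 promoter, last of 3 RefSeq windows, chr11:42420951-42421250, plus strand: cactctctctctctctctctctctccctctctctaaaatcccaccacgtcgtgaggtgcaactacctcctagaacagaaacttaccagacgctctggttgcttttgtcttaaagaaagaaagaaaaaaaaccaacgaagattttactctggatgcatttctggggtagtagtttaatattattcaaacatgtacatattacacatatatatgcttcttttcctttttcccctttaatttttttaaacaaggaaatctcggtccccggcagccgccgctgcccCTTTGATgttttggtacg

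The windows differ in base composition: GC made up 70.0% of the Gabra2 window, 58.7% of the Gabra4 window, 66.0% of the Gabrb1 window and 41.0% of the Gabrb2 window, against a median of 52.7% over all promoter windows. The letters CTTTGAT and CTTTGTT, forms of the motif bound by TCF/LEF factors of the Wnt pathway, were searched on both strands. The RefSeq set used held 24 windows for 20 of the 31 symbols. Grik1 was among the symbols without a window, so its promoter was not searched. Gabrb1 had another window, chr5:71699682-71699981, which is not printed. Of the 24 windows 1 (4.17%), the printed Gabrb2 window, contained either form. Among all 32851 windows of the same length, 9.33% did. A match is a description of the sequence and not a binding site, and a window without these letters says nothing about the factor.

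Across the whole libraries, the kainate subunit Grik1 and the GABA-A subunits Gabra2, Gabrg1, Gabrb2 and Gabra3 were higher in the mutant, with the NMDA subunit Grin3a. The AMPA subunit Gria4, the kainate subunit Grik2, the NMDA subunit Grin2a and the GABA-A subunits Gabrb1 and Gabra4 were lower. A member was called higher or lower when the log2 ratio of mutant to control, with 1 CPM added to each, passed 1.5-fold, and the gene had at least 10 CPM in 1 of the libraries. Of the 31 symbols 25 reached 10 CPM, and 6 of them were called higher and 5 lower. Among all 9785 genes at that level, 8.21% were called higher and 5.84% lower. The median log2 ratio was 0.22 over the 25 members and 0.03 over all genes. In these sums, more cells of a type and more transcript per cell cannot be told apart.

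Grik1, encoding the kainate subunit GluK1, stood at 96.6 CPM in the mutant library, against 20.3 CPM in the control library. This was the widest gap of the family, a log2 ratio of 2.19, and the ratio of the UMI counts was 4.75 (95% counting interval 4.58 to 4.93). Gabra2, an alpha subunit abundant in embryonic brain, had 84.2 CPM in the mutant library and 21.9 CPM in the control library (log2 1.90). Gabrg1, a gamma subunit also found in glia, had 40.8 CPM in the mutant, against 11.8 CPM in the control (log2 1.70). The beta subunit Gabrb2 had 62.3 CPM in the mutant, against 20.4 CPM in the control (log2 1.56). Gabra3 and Grin3a followed with smaller gaps: Gabra3 had 10.4 CPM in the mutant, against 5.04 CPM in the control, and Grin3a 25.6 CPM in the mutant, against 16.4 CPM in the control.

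In the other direction Gabrb1 had 46.2 CPM in the mutant library and 86.6 CPM in the control library (log2 -0.89). Gria4, encoding the AMPA subunit GluA4, had 88.5 CPM in the mutant, against 161 CPM in the control (log2 -0.85). Grik2, encoding GluK2, had 294 CPM in the mutant, against 503 CPM in the control (log2 -0.77). Grin2a, encoding the NMDA subunit GluN2A, had 18.1 CPM in the mutant, against 30.4 CPM in the control (log2 -0.72). Gabra4 lay just past the limit at log2 -0.59 and Grik3 just inside it at log2 -0.58, so the count of 5 turns on small differences. Grik3 is 1 of 14 members within 1.5-fold, whose log2 ratios ran up to 0.48, for Gabrg3. The 6 symbols under 10 CPM were Grin2c, Grin2d, Grin3b, Gabra5, Gabra6 and Grin1os. Grin2c, a GluN2 subunit of mature granule neurons, had 0.536 CPM in the mutant library and 4.21 CPM in the control library. Gabra6, a subunit of mature granule neurons, had 7 UMIs in the mutant library and 6 UMIs in the control library.

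**Figure D1:**
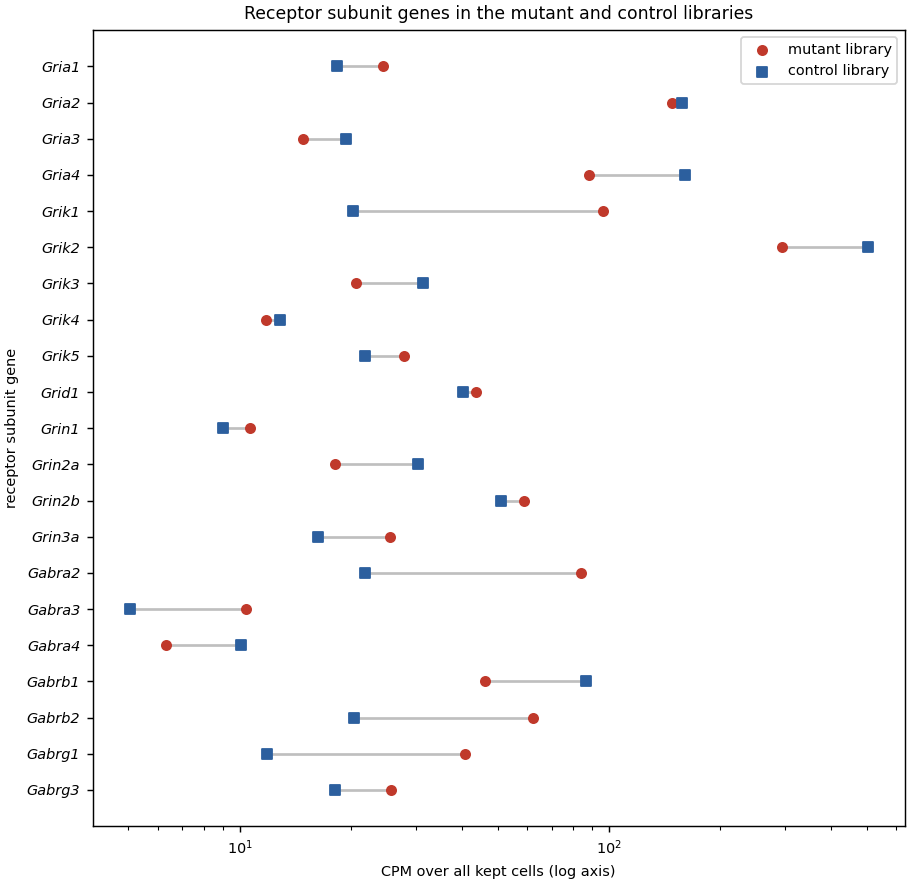
CPM over all kept cells (log axis) of 21 receptor subunit genes at 10 CPM or more, with circles for the mutant library and squares for the control library, each 1 library. Grik1, Gabra2, Gabrg1 and Gabrb2 show the widest gaps with the mutant to the right, and Gabrb1 and Gria4 the widest with the mutant to the left.

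Lesion-gated cells held 33.1% of all UMIs of the mutant library. They held a larger share of the UMIs of Grik1 (65.6%), Gabra2 (61.2%), Gabrg1 (57.7%), Gria1 (53.4%) and Gabrb2 (47.6%), and a smaller share for Grik2 (27.0%), Gria4 (27.9%) and Gabrg3 (23.5%). With lesion-gated cells left out of both libraries, the log2 ratio of Grik1 was 1.27, that of Gabra2 1.13, that of Gabrg1 1.06 and that of Gabrb2 1.23. Of 24 members at 10 CPM or more, 7 were then called higher and 5 lower, against 6.47% of 9739 genes called higher and 5% called lower. Only cells of the gate were left out. Cells without a class, which held 19.9% of the mutant Grik1 UMIs, stayed in, and any lesion cells among them were not separated.

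Next, the cells of the lesion gate were set against astroglial progenitor-gated cells, the 1357 mutant and 1865 control cells with markers such as Slc1a3, Aqp4 and Hopx. Against control astroglial cells, lesion-gated cells carried more transcript of genes such as Gabrb2, Gabra2 and Grik1 and less of Gabrb1, Gabra4, Gabrg3, Gria4, Grin3a and Grid1. Of the 25 members at 10 CPM or more in either class, 12 were called higher and 9 lower, against 19.2% of 10280 genes called higher and 20.4% called lower. The median log2 ratio was 0.58 for the members and 0.08 for all genes. The members' median turned to -0.13 with a limit of 20 CPM and was 0.21 with no limit on low genes, so it gives no direction for the family. The members lay on both sides, and most of them were past 1.5-fold one way or the other. The 2 classes differ in more than receptors: the 7 astroglial markers summed to 2244 CPM in lesion-gated cells and 18164 CPM in control astroglial cells. The 6 granule neuron markers summed to 122 CPM in lesion-gated cells and 44.9 CPM in control astroglial cells. The 6 Tfap2d neuron markers summed to 87.1 CPM in lesion-gated cells and 7.00 CPM in control astroglial cells. Their part in the receptor levels was not tested.

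Among GABA-A genes, Gabrb2 had 89.4 CPM in lesion-gated cells and 9.35 CPM in control astroglial cells (log2 3.13). Gabra2 had 155 CPM in lesion-gated cells and 19.7 CPM in control astroglial cells (log2 2.91). For both genes the counting intervals of the classes lay far apart. Gabra3 was called higher as well, with 10.2 CPM in lesion-gated cells and 2.88 CPM in control astroglial cells (log2 1.53).

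Gabrb1 was the member with the widest gap in the other direction, at 56.1 CPM in lesion-gated cells and 401 CPM in control astroglial cells (log2 -2.81; ratio 0.140, interval 0.134 to 0.146). Its head-to-head neighbour Gabra4, a subunit of extrasynaptic receptors, had 7.71 CPM in lesion-gated cells and 40.2 CPM in control astroglial cells (log2 -2.24). Gabrg3 had 18.2 CPM in lesion-gated cells and 68.5 CPM in control astroglial cells (log2 -1.85). On chromosome 5 the pair Gabra4 and Gabrb1 was therefore lower, while Gabra2 was higher. Gabrg1 lay just inside the limit at log2 0.58, with 71.0 CPM in lesion-gated cells and 47.2 CPM in control astroglial cells. On chromosome 11 Gabrb2 was higher, and Gabra6 had 2 UMIs in lesion-gated cells and 1 UMI in control astroglial cells. On chromosome 7 Gabrg3 was lower, and Gabra5 stayed under 10 CPM. The sources used here do not give whether reads were assigned by strand, so reads in the overlap of Gabra4 with Gabrb1 could belong to either gene.

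Among glutamate receptor genes, Grik1 had the largest ratio, with 191 CPM in lesion-gated cells and 33.2 CPM in control astroglial cells (log2 2.49). Its kainate partners Grik3 and Grik2 were also called higher, with log2 ratios of 1.30 and 0.89, while Grik4, a high-affinity subunit, was lower (log2 -1.27). Gria4 had 74.5 CPM in lesion-gated cells and 261 CPM in control astroglial cells (log2 -1.80), and Gria1 39.5 CPM in lesion-gated cells and 81.3 CPM in control astroglial cells (log2 -1.02). Gria2, whose edited product makes AMPA channels nearly impermeable to calcium, was the 1 AMPA subunit called higher, at 144 CPM in lesion-gated cells and 84.9 CPM in control astroglial cells (log2 0.76). Gria3 was lower (log2 -1.22). Of the NMDA genes, Grin1, the obligatory subunit, had 11.2 CPM in lesion-gated cells and 4.98 CPM in control astroglial cells (log2 1.02), and Grin2b was higher (log2 0.83). Grin3a, a subunit of juvenile receptors, had 18.0 CPM in lesion-gated cells and 53.1 CPM in control astroglial cells (log2 -1.51), and the delta receptor gene Grid1 had 45.1 CPM in lesion-gated cells and 129 CPM in control astroglial cells (log2 -1.49). Grik5, Grin2a and Gabrg1 were among those within 1.5-fold.

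For Grik1 and Gabrb1 the share of cells with a UMI, after every cell was thinned to 3000 UMIs, pointed the same way as the sums. Grik1 was found in 22.0% of thinned lesion-gated cells (unthinned 33.2%) and in 5.25% of control astroglial cells (unthinned 11.8%). Gabrb1 was found in 9.15% of thinned lesion-gated cells (unthinned 16.2%) and in 37.6% of control astroglial cells (unthinned 52.1%). Endothelial cells, which should lack both receptors, gave 0.629% for Grik1 in the mutant library and 2.11% for Gabrb1 in the control library. The median depths were 10649 UMIs in lesion-gated and 8410 in mutant endothelial cells, and 10472 UMIs in control astroglial and 8261 in control endothelial cells. Cells under 3000 UMIs were left out, 354 of the lesion-gated and 75 of the control astroglial cells.

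Set against mutant astroglial cells instead, the AMPA genes Gria1 and Gria4 had the opposite sign. Part of the mutant astroglial cells lay in clusters named by the lesion markers, as given below. Of 25 members, 13 were called higher in lesion-gated than in mutant astroglial cells and 7 lower, against 15.4% of 10158 genes called higher and 18% called lower, and the medians were 0.68 for the members and 0.04 for all genes. Gria4 had 74.5 CPM in lesion-gated cells and 46.0 CPM in mutant astroglial cells, a log2 ratio of 0.68, the opposite sign of that against control astroglial cells. Gria1 turned as well, with 39.5 CPM in lesion-gated cells and 12.98 CPM in mutant astroglial cells (log2 1.53). Gabrb1 and Gabra4 stayed lower but with narrower gaps, at log2 -0.70 and -0.46, the second no longer past 1.5-fold. Grik1 (log2 2.03), Gabra2 (log2 1.80) and Gria2 (log2 1.71) were higher than in either astroglial class. Grin3a was the lowest in this comparison, at 18.0 CPM in lesion-gated cells and 96.6 CPM in mutant astroglial cells (log2 -2.36), followed by Gria3 (11.4 CPM in lesion-gated cells, 23.7 CPM in mutant astroglial cells), Grid1 (log2 -0.97), Grik4 (log2 -0.96) and Gabrg3 (log2 -0.78).

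**Figure D2:**
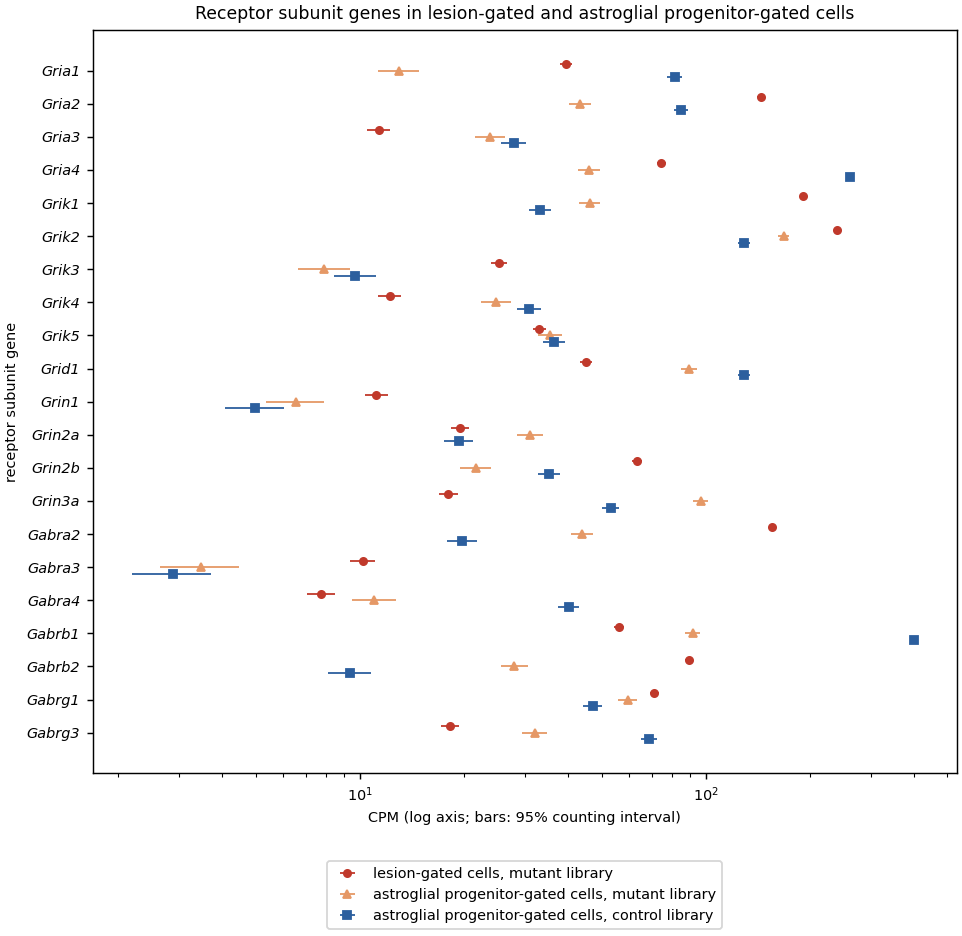
CPM (log axis) of 21 receptor subunit genes at 10 CPM or more, in lesion-gated cells of the mutant library (circles), astroglial progenitor-gated cells of the mutant library (triangles) and of the control library (squares), with 95% counting intervals as bars. For Gabra2, Gabrb2 and Grik1 both astroglial classes lie to the left of the lesion gate, whereas for Gria1 and Gria4 the lesion gate lies between the 2 astroglial classes.

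Lesion-gated cells were not uniform. Grik1 reached 325 CPM in the 767 cells with Lgr6 and Notum detected (interval 314 to 336), against 109 CPM in the 598 cells with Hpse2 and Rgs6 detected (interval 102 to 116). In the 277 lesion-gated cells with Atoh1, the granule lineage factor, Grik1 had 116 CPM. These subsets overlap and were formed from genes of the same cells. The 1263 cells with Mki67 or Top2a, genes of dividing cells, had 117 CPM of Gria2 and 47.9 CPM of Grin2b. The 3550 cells with neither had 158 CPM of Gria2 and 71.2 CPM of Grin2b. Grin3a was instead higher in the cells with Mki67 or Top2a, at 25.5 CPM against 14.2 CPM in those with neither. Gabra2 was close in both, at 156 CPM in the cells with Mki67 or Top2a and 155 CPM in those with neither.

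Shares of a family's UMIs taken by each subunit do not depend on the depth of a class, and they are compared here mainly for the same subunit between groups. Where the largest share of a group is named, it ranks different genes by UMIs only. Intron settings were not stated, so that rank is not one of transcript numbers. In the GABA-A alpha family, Gabra2 took 82.7% of the UMIs in lesion-gated cells and 30.8% in control astroglial cells. Gabra4 took 4.11% in lesion-gated cells and 62.6% in control astroglial cells, where it held the largest share. In the beta family Gabrb1 took 20.3% in lesion-gated cells and 92.1% in control astroglial cells. Gabrb2 took 32.4% in lesion-gated cells and 2.15% in control astroglial cells. The largest alpha share thus belonged to Gabra2 in lesion-gated cells and to Gabra4 in control astroglial cells. In the gamma family Gabrg1 was largest in lesion-gated cells at 57.8%, against 39.8% in control astroglial cells. Gabrg3 held 14.9% in lesion-gated cells and 57.9% in control astroglial cells, where it was largest.

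In the AMPA family Gria2 took 53.5% of UMIs in lesion-gated cells and 18.6% in control astroglial cells, and Gria4 took 27.6% in lesion-gated cells and 57.4% in control astroglial cells. In the kainate family Grik1 took 38.1% in lesion-gated cells and 13.9% in control astroglial cells, and Grik2 was largest in both, at 47.9% in lesion-gated cells and 54.0% in control astroglial cells. Grin2b held the largest part of the GluN2 family in both, 74.9% in lesion-gated cells and 62.5% in control astroglial cells. Mutant astroglial cells lay between for Gabrb1 (61.8%) and Gabra4 (18.0%), and near the lesion gate for Gabra2 (72.2%). For Grin2b they lay outside both, at 39.9%. Over the whole libraries Grik1 took 21.4% of kainate UMIs in the mutant and 3.45% in the control, and Gabra2 73.1% of alpha UMIs in the mutant and 47.6% in the control.

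**Figure D3:**
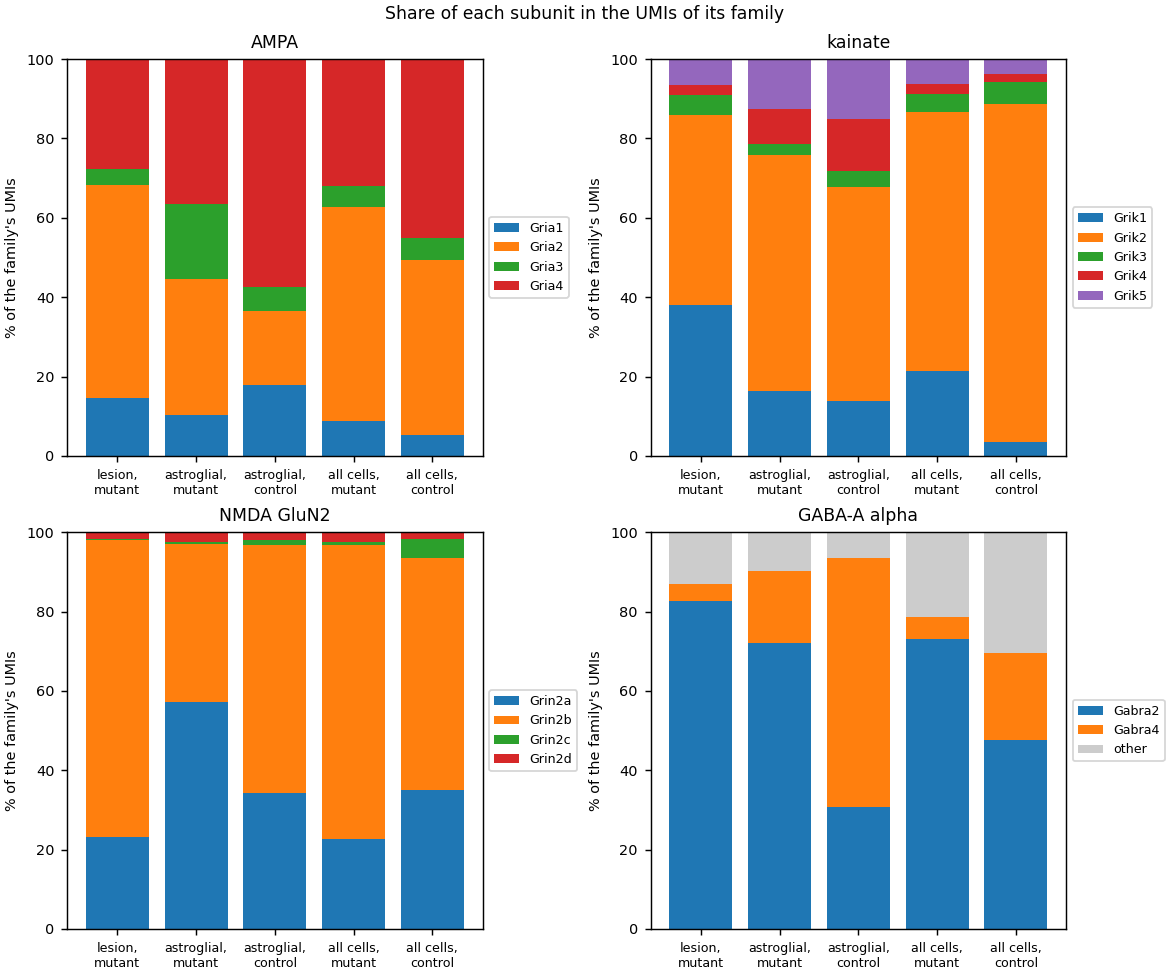
Share of each subunit in the UMIs of the AMPA, kainate, GluN2 and GABA-A alpha families (percent), with the alpha subunits beside Gabra2 and Gabra4 summed as other, for lesion-gated and astroglial progenitor-gated cells of the mutant library, for control astroglial progenitor-gated cells, and for all kept cells of either library. Gabra4 fills most of the alpha bar of control astroglial cells, and Gabra2 most of that of lesion-gated cells.

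The class with the highest level differed between genes, and several genes shared a leading class. In the mutant library 14 classes had at least 50 cells, and Tal2/Gata3/Sox14 GABAergic neurons (190 cells) led for 7 genes: Gria4 (447 CPM), Grin2b (170.4 CPM), Gria1 (164 CPM), Gria3 (119 CPM), Gabra3 (44.3 CPM), Grin1 (22.5 CPM) and Gabra5 (12.95 CPM). Tfap2d glutamatergic neurons led for 6, among them Gria2 (503 CPM), Gabrb2 (152 CPM) and Gabrg3 (89.1 CPM). Oligodendrocyte precursors led for Grid1 (187 CPM), Gabrg1 (84.8 CPM), Grik4 (53.2 CPM) and Grik3 (45.4 CPM), and astroglial progenitors for 6 genes that included Grin3a (96.6 CPM), Gabrb1 (91.6 CPM), Grik5 (35.5 CPM), Grin2a (31.0 CPM) and Gabra4 (11.0 CPM). The lesion gate led for Grik1 and Gabra2, with Tal2/Gata3/Sox14 neurons next, at 96.8 CPM of Grik1 and 75.7 CPM of Gabra2. Grik2 was highest in differentiating granule neurons (803 CPM). In the mutant library the interval of the first class was apart from that of the next for 16 of 27 genes.

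In the control library the 14 classes were not the same: lesion-gated cells (18 cells) and Tal2/Gata3/Sox14 neurons (43 cells) fell under 50 cells, while PAX2-lineage interneurons (154 cells) and PTF1A-lineage progenitors (124 cells) entered. There PAX2-lineage GABAergic interneurons held the highest level of 8 genes, among them Gria4 (399.8 CPM), Gria2 (281 CPM), Grin2b (169.7 CPM), Grik3 (116 CPM), Gria3 (96.5 CPM), Grin1 (48.3 CPM) and Gabra2 (44.2 CPM). Astroglial progenitors led for 6 genes, among them Gabrb1 (401 CPM), Gria1 (81.3 CPM), Gabrg3 (68.5 CPM), Gabra4 (40.2 CPM) and Grik5 (36.4 CPM). Oligodendrocyte precursors led for 6 others: Grid1 (229 CPM), Grin3a (105 CPM), Grik1 (77.0 CPM), Gabrg1 (52.9 CPM), Grik4 (47.4 CPM) and Gabra3 (28.0 CPM). Tfap2d neurons led for Gabrb2 (88.2 CPM), among others, and pericytes or mural cells for Grin2a (76.9 CPM). Grik2 was again highest in differentiating granule neurons, at 1019 CPM. For 13 of the 26 genes at 10 CPM or more in some class, the counting interval of the first class did not overlap that of the second, so the order at the top is unsure for the remainder. Outside the neural classes, Grin2d was highest in meningeal fibroblasts in both libraries, at 16.9 CPM in the mutant, against 12.3 CPM in the control, and Grik1 had 92.3 CPM in mutant and 76.9 CPM in control pericytes or mural cells.

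**Figure D4:**
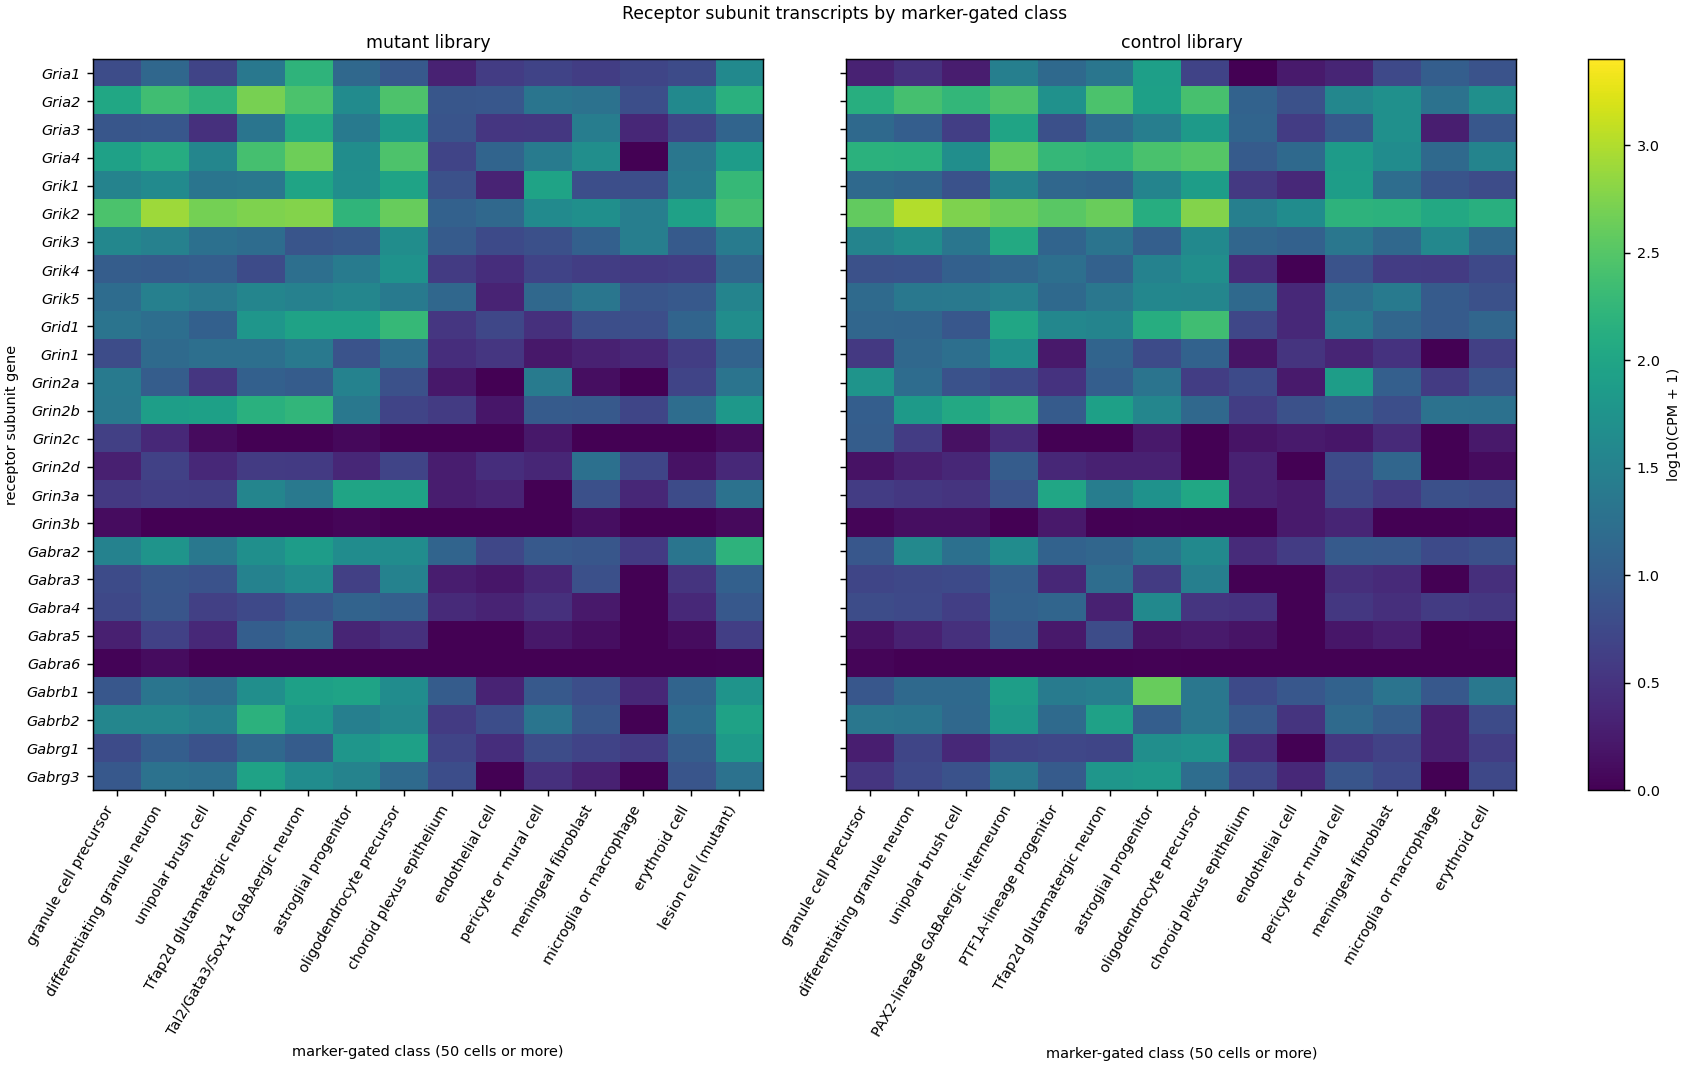
log10(CPM + 1) of 26 protein-coding receptor subunit genes (rows) in marker-gated classes of at least 50 cells (columns), with the mutant library on the left and the control library on the right. Grik2 is bright in differentiating granule neurons of both libraries, and Gabrb1 in control astroglial progenitors.

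Within classes, 6 neural classes had at least 50 cells in both libraries. Gabrb2 was higher in the mutant in all 6 and Grik1 in 4, while Gria1, Gria4, Gabrb1 and Gabra4 were lower in mutant astroglial progenitors. Counting each member in each neural class once, 33 pairs were called higher and 13 lower. Astroglial progenitors had 4 members higher and 7 lower of 20 at 10 CPM or more, against 3.37% of all genes called higher and 4.71% called lower. Tfap2d neurons had 12 higher and 1 lower of 23, against 10.7% and 9.46% of all genes. Granule cell precursors had 5 higher and 3 lower of 16, against 4.83% and 2.62%. Differentiating granule neurons had 5 higher and 1 lower of 19, against 5.73% and 4.66%. Unipolar brush cells had 4 higher and 0 lower of 18, against 2.77% and 1.22%, and oligodendrocyte precursors 3 higher and 1 lower of 20, against 16.4% and 9.9%. The share in oligodendrocyte precursors was thus near that of all genes.

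In astroglial progenitors Gria1 stood at 12.98 CPM in the mutant, against 81.3 CPM in the control (log2 -2.56; ratio 0.160, interval 0.138 to 0.184). Gria4 stood at 46.0 CPM in the mutant, against 261 CPM in the control (log2 -2.48). Gabrb1 stood at 91.6 CPM in the mutant, against 401 CPM in the control (log2 -2.12). Gabra4 (log2 -1.78), Gabrg3 (log2 -1.08), Gria2 (log2 -0.96) and Grin2b (log2 -0.68) were lower too. Both Bergmann glia AMPA genes, Gria1 and Gria4, were among the lower members. Gabrb2 (28.0 CPM in the mutant, 9.35 CPM in the control), Gabra2 (44.0 CPM in the mutant, 19.7 CPM in the control), Grin3a (96.6 CPM in the mutant, 53.1 CPM in the control) and Grin2a (31.0 CPM in the mutant, 19.3 CPM in the control) were higher. The astroglial markers summed to 18386 CPM in the mutant, against 18164 CPM in the control, and the lesion markers to 279 CPM in the mutant, against 58.8 CPM in the control. The gated astroglial cells of the libraries lay in part in different clusters when all cells were clustered without the receptor genes. Clusters 19 and 24 held 318 and 210 mutant, against 2 and 16 control astroglial cells, and cluster 15 held 40 mutant, against 510 control cells. Cluster 1 held 374 mutant and 857 control cells. Clusters 14 and 30, both named by the lesion markers, held 79 and 69 mutant, against 0 and 0 control astroglial cells. The part of this split in the receptor differences was not tested.

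Gabrb2 had 152 CPM in mutant and 88.2 CPM in control Tfap2d neurons. In granule cell precursors it had 35.3 CPM in the mutant, against 21.0 CPM in the control, and in differentiating granule neurons 34.8 CPM in the mutant, against 19.8 CPM in the control. The 6 log2 ratios of Gabrb2 ran between 0.72 in granule cell precursors and 1.49 in astroglial progenitors. In oligodendrocyte precursors it rested on 19 mutant and 27 control UMIs, and the interval of the ratio, 0.938 to 3.33, included 1. Grik1 had 41.7 CPM in the mutant, against 12.03 CPM in the control in differentiating granule neurons (log2 1.71), and in unipolar brush cells 19.7 CPM in the mutant, against 6.28 CPM in the control (log2 1.51). In granule cell precursors it had 32.3 CPM in the mutant, against 13.6 CPM in the control (log2 1.19).

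Transcripts of the lesion markers were also counted in classes other than the lesion gate. Over the 6 neural classes the 7 lesion markers summed to between 78.9 and 279 CPM in the mutant, against 3.89 to 79.0 CPM in the control. They came to 186 CPM in mutant and 7.10 CPM in control granule cell precursors, and to 344 CPM in mutant and 9.87 CPM in control erythroid cells. Erythroid cells held 25.0 CPM of Grik1 in the mutant, against 5.25 CPM in the control. Over the UMIs that were no erythroid marker this came to 106 CPM in the mutant, against 21.2 CPM in the control, close to the whole libraries. Gabrb2 likewise came to 61.4 CPM in the mutant, against 20.4 CPM in the control over those UMIs, and to 14.4 CPM in the mutant, against 5.07 CPM in the control over all UMIs of erythroid cells. The mutant value of 61.4 CPM is above the mutant level of Gabrb2 in granule cell precursors, differentiating granule neurons and astroglial progenitors. Over the same UMIs Gabra2 came to 84.3 CPM in the mutant, against 23.3 CPM in the control. That mutant value is above the mutant level of Gabra2 in granule cell precursors, Tfap2d neurons and astroglial progenitors, the neural classes where it was called higher. Endothelial cells, in contrast, held 1.21 CPM of Grik1 in the mutant, against 1.48 CPM in the control, and 5.44 CPM of Gabrb2 in the mutant, against 2.23 CPM in the control. Over all UMIs, mutant Grik1 levels in unipolar brush cells (19.7 CPM) and Tfap2d neurons (21.3 CPM) were below the erythroid level of 25.0 CPM. Both were above the endothelial level. The mutant erythroid value of 106 CPM came from the UMIs that were no erythroid marker. It was above the mutant Grik1 level in each neural class where Grik1 was called higher. With cells showing 2 or more lesion markers left out, an alternative chosen after seeing the data, the log2 ratio of Grik1 was 0.61 in granule cell precursors, 1.45 in differentiating granule neurons and 1.04 in unipolar brush cells, and 0.37 in Tfap2d neurons, no longer past 1.5-fold. That of Gabrb2 stayed between 0.61 and 1.31 in the 6 classes. Gabra2 was not recomputed in this way. The part of transcripts from outside the cell in the remaining differences was not tested.

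Other members differed within single classes. In granule cell precursors Gabra2 had 30.8 CPM in the mutant, against 7.46 CPM in the control (log2 1.91), and Grin2b 23.0 CPM in the mutant, against 9.51 CPM in the control (log2 1.19). Grid1 was higher there too (log2 0.62). The part of transcripts from outside the cell in the Gabra2 level was not tested. Grin2a, the GluN2 subunit that follows Grin2b in maturing granule neurons, had 23.3 CPM in mutant and 56.0 CPM in control granule cell precursors (log2 -1.23). Gria4 (log2 -0.72) and Gria3 (log2 -0.82) were lower there as well. In differentiating granule neurons Gria1 had 12.8 CPM in the mutant, against 2.06 CPM in the control (log2 2.17) and Gabrg3 17.9 CPM in the mutant, against 4.58 CPM in the control (log2 1.76). Grin2a was lower there (log2 -0.66). Markers of other classes moved with these genes in differentiating granule neurons. The lesion markers summed to 180 CPM in the mutant, against 8.46 CPM in the control, the Tfap2d markers to 260 CPM in the mutant, against 128 CPM in the control, and the Tal2/Gata3/Sox14 markers to 22.6 CPM in the mutant, against 6.14 CPM in the control. Their part in the levels of Gria1 and Gabrg3 was not tested. In unipolar brush cells Gabrg3 was higher too (log2 1.28).

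Tfap2d neurons numbered 876 in the mutant and 101 in the control. Their lesion markers summed to 250 CPM in the mutant, against 79.0 CPM in the control, and their granule neuron markers to 234 CPM in the mutant, against 475 CPM in the control, and the part of either in the receptor levels was not tested. There Gabra2 had 48.7 CPM in the mutant, against 12.3 CPM in the control (log2 1.90), Gabrg1 12.9 CPM in the mutant, against 4.10 CPM in the control (log2 1.44), and Gabra3 30.8 CPM in the mutant, against 15.4 CPM in the control (log2 0.96). The control values rest on few counts: 12 UMIs for Gabra2, 4 for Gabrg1 and 15 for Gabra3. Gria2, with many more UMIs, had 503 CPM in the mutant, against 272 CPM in the control (log2 0.88). Grid1 (log2 0.84), Gabrb1, Grin2b and Grik5 were among the others higher there. Grik4 was the 1 lower member (log2 -0.90), and the interval of its ratio, 0.244 to 1.09, included 1. In oligodendrocyte precursors Gabrb1 (log2 1.01) and Gabrg1 (log2 0.67) were higher and Grin2b lower (log2 -1.52), the last from 2 mutant and 17 control UMIs. Grik2, Grik3 and Grin1 were within 1.5-fold in each neural class where they reached 10 CPM.

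Outside the neural classes most called members were lower in the mutant. In meningeal fibroblasts 0 members were higher and 8 lower of 12, against 4.68% and 9.1% of all genes. In pericytes or mural cells 0 were higher and 9 lower of 13, against 5.4% and 8.68%. Grik2, for example, had 47.9 CPM in mutant and 151 CPM in control fibroblasts. In choroid plexus epithelium 1 member was higher and 3 lower of 7, against 6.3% and 4.07%, and in endothelial cells 0 were higher and 2 lower of 4, against 5.13% and 7.84%. Microglia or macrophages had 1 member higher and 5 lower of 7, against 12.3% and 15.6%. Erythroid cells had 3 higher and 4 lower of 12, against 6.72% and 7.25%. Grin2a had 25.3 CPM in mutant and 76.9 CPM in control pericytes or mural cells, its first class in the control library. Grik2 had 88.0 CPM in mutant and 138 CPM in control erythroid cells, and the part of transcripts from outside the cell was not tested.

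**Figure D5:**
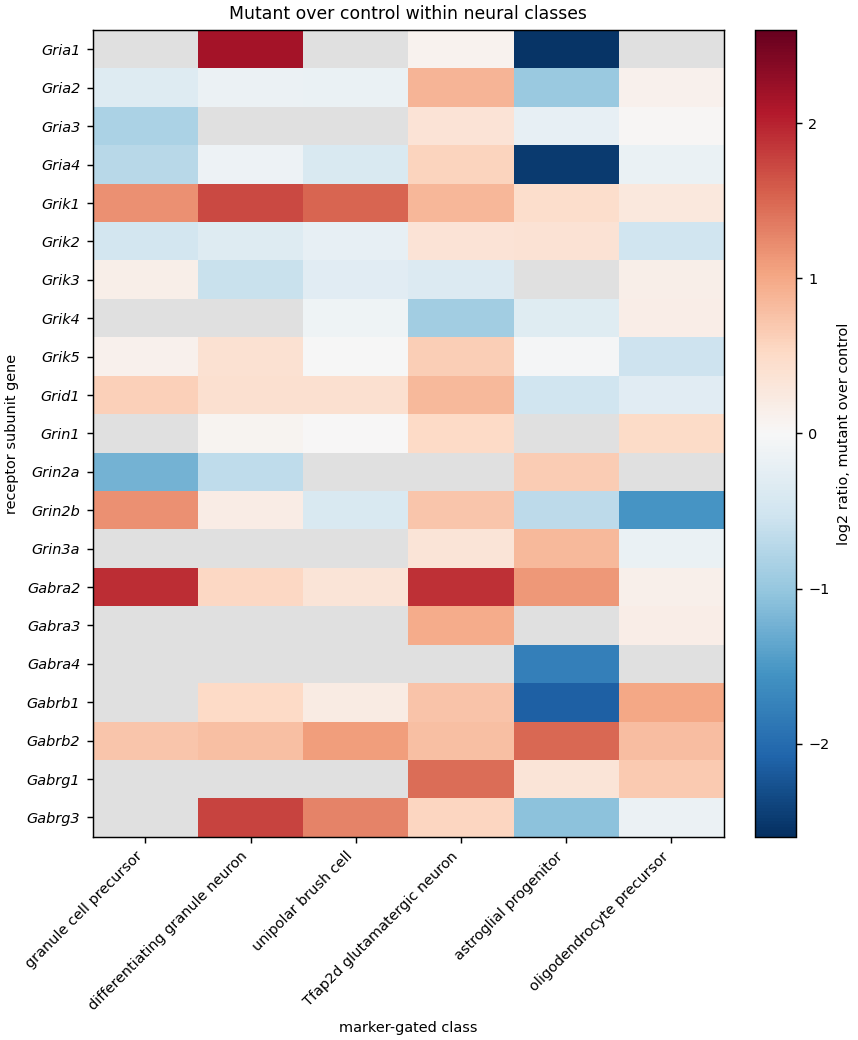
log2 ratio of mutant over control (colour; red higher and blue lower in the mutant) of 21 receptor subunit genes in the 6 neural classes with at least 50 cells in both libraries; grey marks genes under 10 CPM in both libraries. The Gabrb2 row is red in all 6 columns, and the astroglial progenitor column holds the darkest blues, at Gria1, Gria4 and Gabrb1.

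Genes that work with these receptors were read from 6 lists. Of the AMPA and kainate auxiliary subunits, 4 of 10 at 10 CPM or more were higher and 3 lower in lesion-gated cells against control astroglial cells. The median log2 ratio was -0.01, against 0.08 for all genes. Among all genes of this comparison, 19.2% were called higher and 20.4% lower. Neto2, which slows the gating of kainate receptors, had 410 CPM in lesion-gated cells and 59.0 CPM in control astroglial cells (log2 2.77). Cnih2, an AMPA receptor export factor, had 187 CPM in lesion-gated cells and 42.7 CPM in control astroglial cells, and Cacng2 (stargazin) 15.5 CPM in lesion-gated cells and 3.12 CPM in control astroglial cells. Of the scaffolds and partners of glutamate receptors, 7 of 14 were higher and 3 lower (median 0.30). The cerebellin Cbln4 had 30.2 CPM in lesion-gated cells and 0.144 CPM in control astroglial cells, the second from 3 UMIs, with 71.7 to 1019 as the interval of the ratio. Cbln2 (log2 3.20) and the postsynaptic scaffold Shank1 (log2 2.92) followed.

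Of the metabotropic glutamate and GABA-B receptors, 2 of 8 were higher and 5 lower (median -1.68), against 19.2% and 20.4% of all genes. Grm8, a presynaptic type of receptor, had 278 CPM in lesion-gated cells and 19.8 CPM in control astroglial cells (log2 3.74), and Grm4, of the same group, was higher as well (log2 3.09). Gabbr2, an obligatory GABA-B subunit, had 22.4 CPM in lesion-gated cells and 175.5 CPM in control astroglial cells (log2 -2.92). Of the GABA-A scaffolds and partners, 3 of 6 were higher and 0 lower (median 0.28): the chloride importer Slc12a2, with 89.9 CPM in lesion-gated cells and 38.3 CPM in control astroglial cells, the auxiliary protein Lhfpl4 (log2 0.99) and the scaffold gephyrin, Gphn (log2 0.63). Among other GABA-A and glycine receptor subunits 1 of 12 genes, Glrb, reached 10 CPM and was higher (log2 1.02). Of 3 genes of the RNA-editing enzyme family, Adarb2 was lower (log2 -1.55), and Adarb1 (log2 0.39) and Adar (log2 0.19) were within 1.5-fold. Against mutant astroglial cells Adarb2 had the opposite sign (log2 0.61).

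Across all kept cells the same lists gave 3 of 9 auxiliary subunits higher and 2 lower, against 8.21% and 5.84% of all genes. Neto2 had 212 CPM in the mutant, against 60.1 CPM in the control, with Cacng8 higher (log2 1.26) and Cacng2 lower (log2 -1.20). Of the glutamate receptor partners 5 of 14 were higher and 2 lower: Cbln4 was higher (log2 2.48), and Homer2 (log2 -1.33) and Cbln1 (log2 -1.32), the cerebellin of granule neurons, were lower. Grm8 had 122 CPM in the mutant, against 13.1 CPM in the control. Adarb2 had 61.4 CPM in the mutant, against 225 CPM in the control, and Adarb1, the enzyme that edits Gria2, had 16.8 CPM in the mutant, against 37.2 CPM in the control. The chloride importer Slc12a2 was the 1 called GABA-A partner of 6, with 64.2 CPM in the mutant, against 33.9 CPM in the control. Of the metabotropic receptors, 2 of 7 were higher and 1 lower, with Grm5 at log2 0.79.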

How the data were processed

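The values the authors deposited are raw UMI counts, without normalization, 1 matrix per library. The submitters' processing notes name Cell Ranger 7.0.1 and mm10. Intron and strand settings were not stated there, so levels are compared for 1 gene between groups. Barcodes were kept at 1000 or more UMIs, 500 or more genes and at most 10% mitochondrial UMIs, which left 16482 mutant and 16812 control cells. Scrublet (scanpy 1.11.5, expected rate 16%) then removed 618 mutant and 843 control doublets.

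Cells were placed in classes by detected markers, mostly 3 or more of a list (4 for astroglial cells, 2 for Tal2/Gata3/Sox14 neurons). The lesion gate went before the neural gates, erythroid cells had at least 50% haemoglobin UMIs, and 707 mutant and 1430 control cells that passed several gates got no class. The thresholds were set after marker detection was seen. UMIs were summed per class and scaled to CPM. Calls are by size, 1.5-fold on log2(CPM + 1) at 10 CPM or more in either group. Intervals are exact Poisson, conditional binomial or Clopper-Pearson at 95% and cover counting error only. With 1 library per genotype no test was made. The steps from sums to calls were checked on simulated counts.

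Gene coordinates are from GENCODE M21 (GRCm38). The rule for named genes took every member in the text or by count, the 6 largest log2 ratios each way in the main comparisons, the leading subunit and class, and the 3 largest of each pathway list. Counts, medians and shares cover all members, and 4 members and 1 gene of a pathway list are not reported here by name. The members, the gene lists and the markers were chosen with earlier results of these data known. The alternatives tried were no cell filter, doublets kept, 1 more marker, other totals, scaling, filters and pseudocount, classes from Leiden clusters, lesion cells left out, and 2 chosen after seeing the data: mutant astroglial cells as the comparison, and cells with 2 or more lesion markers left out.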

Additional observations from a re-analysis of the deposited data

Results flagged for a closer look

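For 8 of the members reported by name, the mutant lay past 1.5-fold above the control in 1 class and below it in another. Their counting intervals of the ratio lay on opposite sides of 1. The share of all genes that did so was not computed, so the count says nothing about the family. The difference between the classes was not tested, and each class rests on 1 library per genotype. The highest and the lowest class of each gene are given. For Gria1, Gabrg3 and Gabrb1 both were neural. Gria1 had a log2 ratio of 2.17 in differentiating granule neurons (12.8 CPM in the mutant, 2.06 CPM in the control) and of -2.56 in astroglial progenitors. Gabrg3 had 1.76 in differentiating granule neurons and -1.08 in astroglial progenitors. Gabrb1 had 1.01 in oligodendrocyte precursors, from 22 mutant and 27 control UMIs, and -2.12 in astroglial progenitors.

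For the other genes the lowest class was not a neural class. Of these, Grin2a, Grin2b and Gria2 were also called in opposite directions in neural classes, at log2 -1.23 for Grin2a in granule cell precursors, and at -0.68 for Grin2b and -0.96 for Gria2 in astroglial progenitors. Grin2a had 0.66 in astroglial progenitors and -1.56 in pericytes or mural cells, where it had 25.3 CPM in the mutant, against 76.9 CPM in the control. Grin2b had 1.19 in granule cell precursors and -1.88 in microglia or macrophages, the second from 3 mutant and 19 control UMIs. Gria2 had 0.88 in Tfap2d neurons and -1.54 in microglia or macrophages, from 4 mutant and 19 control UMIs. Grid1 had 0.84 in Tfap2d neurons and -3.04 in pericytes or mural cells, from 3 mutant and 37 control UMIs. Grik1 had 2.06 in erythroid cells and -1.33 in meningeal fibroblasts.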

How the results depend on the processing

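No paired analysis was possible because each genotype has 1 library. Of the summary results recomputed, 92 stayed close to the reported value, 23 moved further and 1 reversed. Of 304 single-gene values, 228 stayed close to the reported value, 75 moved further and 1 reversed, and 302 kept their sign. A log2 ratio, of a single gene or a median over the members, counted as reversed only where the reported one was past 1.5-fold. The members' median in lesion-gated cells against control astroglial cells, 0.58, lay just inside that limit. Its change of sign at 20 CPM therefore counted as moved. Setting the median gene to a ratio of 1 shifts log2 ratios by 0.03 for the whole library and 0.08 for the lesion gate.

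The gaps in subunit share between lesion-gated and control astroglial cells moved as follows, in percentage points. With doublet calls kept, Grik2 was -9.33, Gabra4 -55.7 and Gabrb1 -70.9. With 1 more marker required, Grik2 was -4.41, Grin2b 4.12 and Gabra4 -63.3. With Leiden classes, Gria4 was -31.0, Gabra4 -55.8 and Gabrb1 -73.6, and Grik2 turned to 0.885; the cause was not tested. Against mutant astroglial cells, chosen after seeing the data, Gria4 was -8.87, Grik2 -11.6, Grin2b 35.0, Gabra4 -13.9, Gabrb1 -41.5 and Gabrg3 -19.1, and the log2 ratio of Gria4 turned to 0.68, where Gria4 is itself low in the mutant astroglial cells.

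The median log2 ratio of the members in lesion-gated cells was -0.13 at 20 CPM, 0.21 with no low filter and 0.89 with Leiden classes. With no low filter, 51 member and class pairs were higher. Without lesion-gated cells the whole-library median was 0.13, and the share gaps were -11.0 for Gria4, -10.0 for Grik2, and 14.0 for Gabra2. Low counts limit Gabra6, Grin3b, Grin2c and Grin1os, and classes near 50 cells.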
